A study of Mus musculus with 24 samples.

Results

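The neuropeptide genes Oxt (oxytocin) and Avp (arginine vasopressin) and the receptor genes Oxtr (oxytocin receptor) and Avpr1a (vasopressin receptor 1A) were followed through an RNA-seq experiment on mouse prefrontal cortex. They were found by gene symbol in the count table and are 4 of its 45777 genes. All 4 passed the filter on low counts. The 24 libraries came from adult male wild-type mice in 4 groups of 6: Control, which was neither separated nor supplemented; MS, exposed to maternal separation (the removal of pups from their mother early in life); Control_EC12, given EC-12, a preparation of heat-killed Enterococcus faecalis; and MS_EC12, exposed to both. The design text gives 5 weeks of EC-12. The sources used here do not give the strain, the dose or the separation schedule. The study asked about social deficits after separation, per its title, and these genes belong to the best-known peptide system of social behaviour. Nothing in the labels ties each library to its own animal. The p-values below therefore measure only spread between libraries, which can include technical spread.

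Oxytocin and vasopressin are small peptides cut from precursors that also contain a carrier protein, neurophysin. Their mRNA is made mainly in neurons of the paraventricular and supraoptic nuclei of the hypothalamus, whose axons release the peptides in the pituitary and in many brain regions. The receptors are made by the receiving cells: Oxtr and Avpr1a both encode G protein-coupled receptors that signal through Gq, phospholipase C and calcium, and cortical interneurons and pyramidal cells are among the cells known to carry Oxtr.

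The ligand genes are neighbours. In GRCm38, Oxt (Gene ID 18429) spans chr2:130574519-130577054 on the plus strand and Avp (Gene ID 11998) spans chr2:130580620-130582588 on the minus strand, with 3565 bases between them. Oxtr (Gene ID 18430) lies at chr6:112473683-112491035 and Avpr1a (Gene ID 54140) at chr10:122448499-122453453. No other gene of the RefSeq table overlaps any of them.

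Part of the ligand transcripts is identical. The longest run of bases shared by the GENCODE transcripts Oxt-201 (537 bases) and Avp-201 (577 bases) is 127 bases, of which 125 open exon 2. Exon 2 is wholly coding in both and encodes the central stretch of neurophysin. It is shown here because a read that lies inside the shared run carries nothing to tell the 2 genes apart; the shared run is in capitals, and 193 of the 202 bases (95.5%) are identical.
Oxt exon 2, chr2:130576591-130576792, plus strand, GRCm38: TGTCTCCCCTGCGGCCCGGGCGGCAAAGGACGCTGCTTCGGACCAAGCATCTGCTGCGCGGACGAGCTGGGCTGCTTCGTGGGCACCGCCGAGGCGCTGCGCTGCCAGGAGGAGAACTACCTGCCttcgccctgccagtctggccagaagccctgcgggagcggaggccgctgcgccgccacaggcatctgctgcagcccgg
Avp exon 2, chr2:130581056-130581257, minus strand, GRCm38: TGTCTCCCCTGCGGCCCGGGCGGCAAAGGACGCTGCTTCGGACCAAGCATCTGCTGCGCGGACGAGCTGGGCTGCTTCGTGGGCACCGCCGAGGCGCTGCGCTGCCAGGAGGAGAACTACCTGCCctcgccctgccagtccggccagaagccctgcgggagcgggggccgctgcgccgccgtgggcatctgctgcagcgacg
The sources used here do not say how reads with several matches were counted, so a part of each ligand's count may come from the other. The receptor transcripts Oxtr-201 and Avpr1a-201 share no run longer than 23 bases.

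The upstream sequences share less. The 250 bases before each RefSeq start (GRCm38.p6) are shown because the ligands were counted together in the same libraries, as given below. Capitals mark TGACC on either strand (GGTCA on the printed one), the half-site of nuclear hormone receptors, and CACGTG, the E-box recognised by the clock proteins.
Oxt upstream, chr2:130575919-130576168, plus strand: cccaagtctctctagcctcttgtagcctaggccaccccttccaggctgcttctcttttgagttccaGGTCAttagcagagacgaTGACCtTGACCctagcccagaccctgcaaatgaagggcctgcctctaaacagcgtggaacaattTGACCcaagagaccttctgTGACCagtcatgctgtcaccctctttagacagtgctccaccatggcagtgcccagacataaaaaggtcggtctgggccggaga
Avp upstream, chr2:130582589-130582838, minus strand: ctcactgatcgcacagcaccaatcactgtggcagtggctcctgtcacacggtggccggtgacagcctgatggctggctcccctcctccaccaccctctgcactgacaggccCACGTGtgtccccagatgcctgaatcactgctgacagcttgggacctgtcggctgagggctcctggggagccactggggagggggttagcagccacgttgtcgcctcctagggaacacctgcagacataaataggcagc
The Oxt window holds 5 TGACC matches and no CACGTG, and the Avp window 1 CACGTG and no TGACC. The searched motifs do not overlap one another in these windows. Of 27025 promoter windows, 34.9% hold at least 1 TGACC, 0.244% hold 4 or more, and 6.05% hold CACGTG. In the corresponding windows Oxtr has 1 match of each motif and Avpr1a has neither.

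Ligand reads were few in most libraries and numerous in a small number of them. Oxt counts had a lowest, median and highest value of 0, 5.5 and 30 in Control, 0, 8 and 241 in MS, 0, 8.5 and 44 in Control_EC12 and 4, 20.5 and 740 in MS_EC12. Avp counts were 0, 4.5 and 18 in Control, 0, 6.5 and 186 in MS, 0, 5.5 and 62 in Control_EC12 and 0, 8.5 and 236 in MS_EC12, in the same order. The same library was highest for both ligands in each group: Control replicate 1, MS replicate 1, Control_EC12 replicate 4 and MS_EC12 replicate 6. The ranges of all groups overlapped for both genes. In bulk tissue, fewer cells that express a gene and less of its mRNA per cell cannot be told apart. A library with no read allows up to 3 counts, which for Oxt is at most 0.111 CPM (counts scaled to library size) in the 3 libraries concerned; intervals and such limits cover counting error only.

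A pair of libraries held most ligand reads. MS_EC12 replicate 6 and MS replicate 1 together had 981 of the 1317 Oxt counts (74.5%) and 422 of the 618 Avp counts (68.3%). Within their own groups, MS_EC12 replicate 6 held 84.5% of the Oxt counts and MS replicate 1 held 77.2%. In CPM, the median of Oxt was 0.194 in Control, 0.274 in MS, 0.291 in Control_EC12 and 0.626 in MS_EC12, against highest values of 0.952, 6.94, 1.31 and 19.1. MS_EC12 replicate 6 therefore stood at 19.1 CPM (95% exact binomial interval 17.8 to 20.6), while the next library of its group was at 2.70. The plot of ligand CPM by library shows this for both genes.

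**Figure D1:**
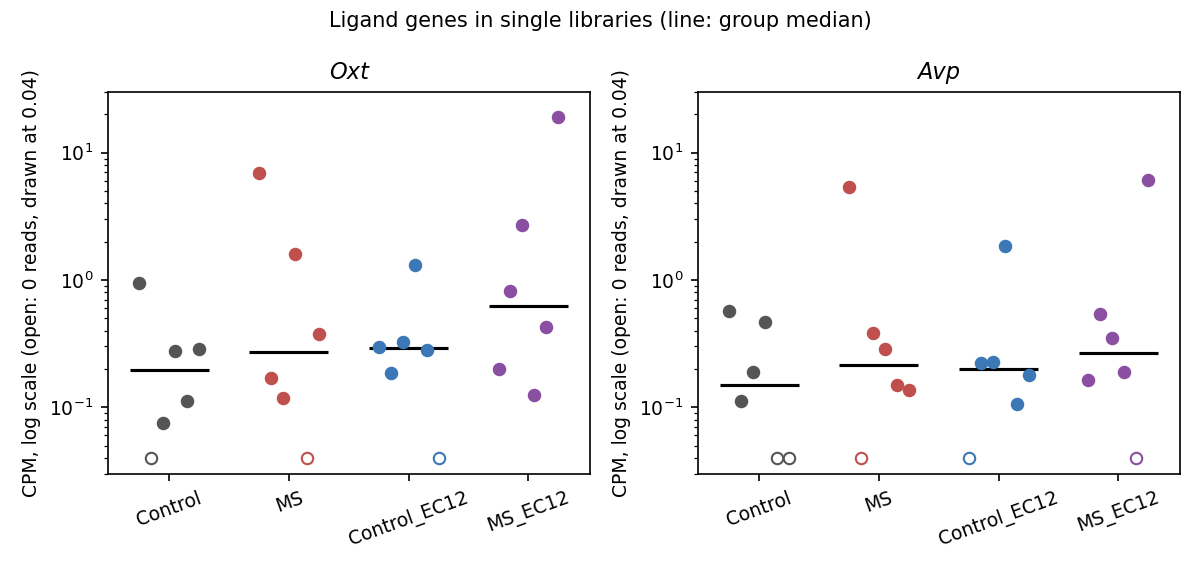
Oxt and Avp in CPM (vertical log axes) in each of the 24 libraries, by group; points are libraries, open points at the bottom are libraries with 0 reads, and lines are group medians. MS_EC12 replicate 6 (19.1 for Oxt, 6.11 for Avp) and MS replicate 1 (6.94 and 5.35) lie above all other libraries, and the medians of all groups stay below 1.

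This spread set the precision of every ligand comparison. The biological coefficient of variation that edgeR estimated within groups was 1.36 for Oxt and 1.48 for Avp, against a median of 0.156 over all genes tested. Of the genes tested, 99.86% had a lower value than Oxt and 99.91% a lower value than Avp. The same coefficient was 0.135 for Oxtr and 0.341 for Avpr1a. The ligands thus varied far more between libraries of a group than the receptors in the same RNA.

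Markers of the hypothalamus were compared with the ligands because the ligands are made there. A list of 20 hypothalamic genes, with neither ligand in it, summed to 19.3 to 29.9 CPM in Control, 20.9 to 44.5 in MS, 23.0 to 40.3 in Control_EC12 and 25.004 to 45.1 in MS_EC12. None of the 20 was at 0 in every library. The most abundant were Cartpt (32.3 mean TPM, a level scaled to transcript length), Trh (16.5), Gal (4.38) and Gnrh1 (3.94), which are neuropeptide genes that cortical or other forebrain cells also express, so the sum is not specific to the hypothalamus.

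Transcription factor genes of the ligand neurons were also read in single libraries. The genes of this paragraph were chosen after their values were seen. Otp, a transcription factor of paraventricular neurons, had 80 counts in MS_EC12 replicate 6, 32 in MS replicate 1, 11 each in MS replicate 4 and MS_EC12 replicate 3, and 7 or fewer in every other library. These are the 4 libraries of most Oxt reads: 740, 241, 51 and 85. Sim1, another transcription factor needed by those neurons, had 31 counts in MS replicate 1 but 3 in MS_EC12 replicate 6, where Oxt was highest. Hmx3, also of the hypothalamic list, had 25 counts in MS_EC12 replicate 6. It had 13 each in MS replicates 1 and 4 and MS_EC12 replicate 3, and 7 or fewer elsewhere. Gal had 168 counts in MS_EC12 replicate 6 and 140 in MS replicate 1, and Nkx2-1 had 106 and 118. For both genes every other library was lower. Markers of the lateral hypothalamus did not follow Oxt in both libraries. Pmch, read in 21 of 24 libraries, had 12 counts in MS replicate 1 but 0 in MS_EC12 replicate 6. Its highest count, 12, was also reached in MS_EC12 replicate 5, which had 15 Oxt counts. Hcrt had 0 in both. Control_EC12 replicate 4, with 44 Oxt and 62 Avp counts, had no read of Otp or Sim1. The same library had 7 counts of Hcrt, more than any other library, 11 of Pmch and 82 of Nkx2-1. Its hypothalamic list sum of 40.3 CPM was the highest of its group. Whether hypothalamic tissue carried into the samples has a part in the ligand values was not tested.

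Across the 24 libraries the ligands moved with one another and with the hypothalamic list. In log2 CPM, Oxt correlated with Avp at Pearson r = 0.71 (Spearman rho = 0.52), Oxt with the list at 0.57 (rho = 0.45) and Avp with the list at 0.63 (rho = 0.53). The permutation p-values of r, adjusted over the 6 relations computed, were 0.00138, 0.00668 and 0.00204, and those of rho were 0.0317, 0.0563 and 0.0317. All points share sequencing depth as a source of noise, and for the ligands also the identical stretch of exon 2. Without MS replicate 1 and MS_EC12 replicate 6, the libraries farthest from the median, r was 0.39, 0.34 and 0.43 (adjusted permutation p = 0.184 for each). The relations thus stayed positive but did not pass without those 2 libraries. Whether they rest on these alone cannot be told, because leaving out the extremes also narrows the range. Within groups of 6, r of Oxt with Avp was 0.42 in Control, 0.75 in MS, 0.52 in Control_EC12 and 0.83 in MS_EC12 (exact permutation p = 0.45, 0.0861, 0.261 and 0.0458).

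The same relations were computed for the receptors. Oxtr had r = −0.32 with the hypothalamic list (adjusted permutation p = 0.188) and Avpr1a had r = 0.26 (0.276). Oxtr and Avpr1a had r = 0.13 with each other (0.551). With group means subtracted, r of Avpr1a with the list was 0.48 (adjusted permutation p = 0.0265), while that of Oxtr was −0.02. Without MS replicates 1 and 4, r of Oxtr with the list was −0.49 (rho = −0.43, adjusted permutation p = 0.0291 for r and 0.0841 for rho).

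**Figure D2:**
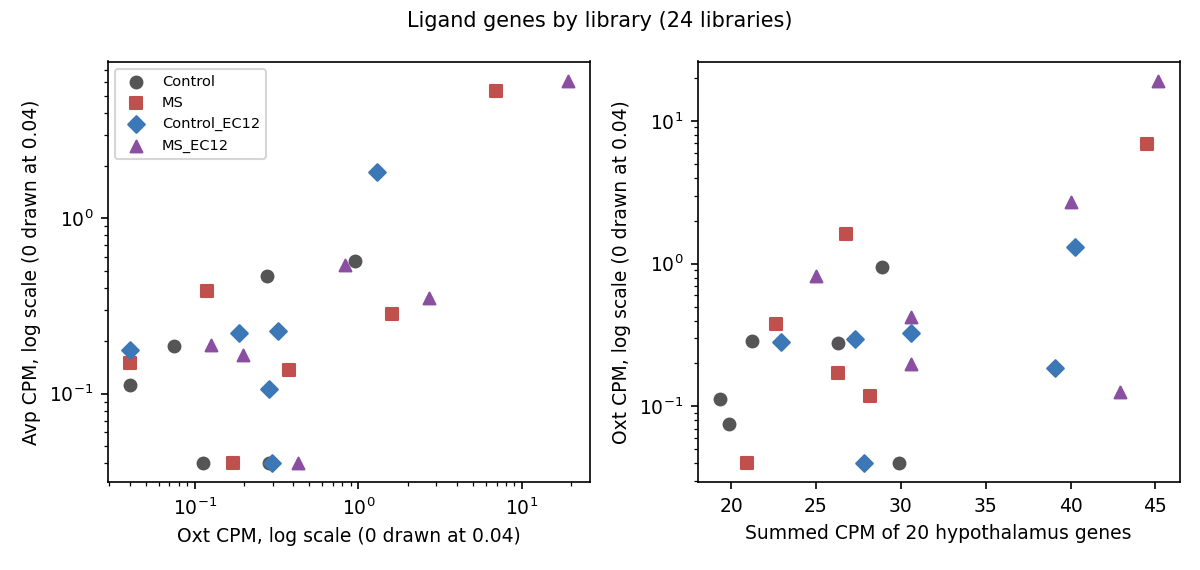
Left, Avp CPM against Oxt CPM; right, Oxt CPM against the summed CPM of the 20 hypothalamic genes; 1 point per library, coloured by group, ligands on log axes with 0 reads drawn at the lower edge. The rising pattern is weaker without MS replicate 1 and MS_EC12 replicate 6: r of Oxt with Avp is 0.71 over 24 libraries and 0.39 without them.

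Genes that followed each member most closely were ranked by r in log2 CPM over the 24 libraries after group means were subtracted, as a description with no test. For Oxt they were Gpx3 (r = 0.83, rho = 0.82), a secreted glutathione peroxidase, Magel2 (0.81, 0.80), a gene of the Prader-Willi region active in the hypothalamus, Gabrq (0.81, 0.78), a GABA-A receptor subunit, Zcchc12 (0.79, 0.75) and Irs4 (0.78, 0.80), an insulin receptor substrate. For Avp they were Crabp1 (0.77), Dtymk (0.75), Abhd14b (0.71), Oxt itself (0.70) and Nrip2 (0.68). For Oxtr they were Tnnt2 (0.71), Mrps22 (0.69), Tmem70 (0.69), Palm3 (0.69) and Fam118b (0.68). For Avpr1a they were Lhx5 (0.80), a transcription factor of the forebrain, Ngfr (0.79), a neurotrophin receptor that marks cholinergic neurons, Stk32b (0.78), C1ql2 (0.74) and Dgkk (0.73).

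The deposited TPM values of Oxt carry a further uncertainty. The authors' TPM divided by CPM was 3.14 to 3.99 for Avp in every library with reads, as a fixed transcript length gives. For Oxt it was 3.37 to 4.33 in the 5 libraries with 40 or more counts, but 0.762 to 3.23 (median 1.10) in the 10 libraries with 1 to 9 counts. Low Oxt values were thus up to several times smaller in TPM than in CPM relative to high ones. Oxt spans 2536 bases because its RefSeq models include one that starts upstream of the window shown above. Whether reads from that longer model account for the lower ratio was not tested, and the main comparisons use counts.

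**Figure D3:**
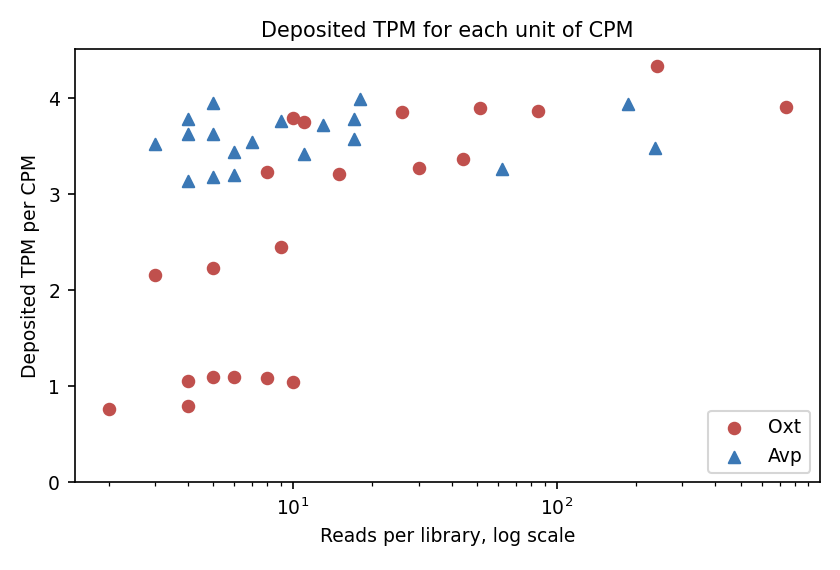
Deposited TPM divided by CPM (vertical axis) against read count (log axis) for Oxt and Avp, 1 point per library with reads. Avp stays between 3.14 and 3.99 at all counts, while Oxt reaches 3.37 or more in the 5 libraries with 40 or more counts and has a median of 1.10 below 10 counts.

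Receptor reads were present in every library. Oxtr counts ran from 199 to 404 and Avpr1a counts from 6 to 44, out of 26250197 to 39252382 counts per library. Per length, Oxtr averaged 4.29 ± 0.735 TPM and Avpr1a 0.615 ± 0.252 (SD, n = 24). Oxtr exceeded Avpr1a in 24 of 24 libraries, by a TPM ratio of 3.96 to 29.7 (median 6.52). The receptors also compared differently with their ligands: Oxt was above Oxtr in TPM in 5 of 24 libraries, and Avp was above Avpr1a in 15 of 24. Median TPM over the libraries was 0.558 for Oxt and 0.684 for Avp, so the mean of Oxt (5.80 TPM) came from few samples.

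Oxtr was lowest in the EC-12 groups. Its lowest, median and highest CPM were 8.73, 10.3 and 11.8 in Control, 8.22, 9.73 and 11.6 in MS, 7.27, 8.80 and 10.5 in Control_EC12 and 6.55, 8.32 and 10.3 in MS_EC12. Of the 12 EC-12 libraries, 10 lay under the mean of the unsupplemented group of the same rearing, but the ranges of all groups overlapped. Means were 10.3 ± 1.07, 9.76 ± 1.16, 8.79 ± 1.36 and 8.42 ± 1.27 (SD, n = 6) in that order. Control exceeded Control_EC12, and MS exceeded MS_EC12, by more than the SD of either group, while the gaps between Control and MS and between Control_EC12 and MS_EC12 were smaller than the SDs. The lowest of all was MS_EC12 replicate 6, the library of most Oxt reads; MS replicate 1, the second in Oxt reads, had the highest Oxtr of the MS group.

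Averaged over both rearings, the EC-12 difference of Oxtr was −0.22 ± 0.08 (log2 fold change ± SE, 95% interval −0.39 to −0.06), a level 0.857 times that without EC-12. It did not pass at an adjusted p of 0.0703 (edgeR quasi-likelihood F test, unadjusted p = 0.0105), and 7.88% of all genes tested were called in this comparison. Within Control rearing the log2 fold change was −0.23 ± 0.11 (adjusted p = 0.560) and within MS rearing −0.21 ± 0.11 (adjusted p = 0.190). The interaction between rearing and supplement was 0.02 ± 0.16 (95% interval −0.31 to 0.35).

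The call on Oxtr turned on the tool and on single libraries. DESeq2 gave −0.23 with an adjusted p of 0.0421, limma on deposited TPM −0.30 with 0.0392, and voom with library weights −0.18 with 0.0424. On TPM the median of all genes in this comparison also moved, by −0.078 from the edgeR fit, to −0.059. Leaving out MS replicate 3 in edgeR gave −0.25 with 0.0367. The dependence of libraries on GC content also moved with the groups: the slope of expression on GC was below 0 in all 6 Control libraries, 5 MS, 4 Control_EC12 and 2 MS_EC12 libraries. Within the 17 libraries of negative slope Oxtr was at −0.25 (adjusted p = 0.155, edgeR), and with the slope and replicate number as covariates at −0.12 (adjusted p = 0.70). The part of this slope in the Oxtr difference was not tested further.

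Markers of other regions and cell classes moved with EC-12 in the same comparison. The olfactory bulb list summed to 32.3 to 195 CPM in Control and 21.9 to 159 in MS, against 116 to 378 in Control_EC12 and 51.3 to 310 in MS_EC12. All 6 of its genes had a positive averaged EC-12 difference (median 0.90), and none passed: Nmb, the one of smallest p, was at 0.91 (adjusted p = 0.0563, edgeR). Of 9 markers of cortical excitatory neurons, Rorb (−0.40) and Foxp2 (−0.47) were lower, and of 8 interneuron markers Gad2 (−0.32) was lower and Htr3a (0.32) higher (adjusted p = 0.0408, 0.0411, 0.0464 and 0.0481, edgeR). Pde10a of the striatal list (−0.36) and Slc5a7 of the septal list (−0.56) were lower too (adjusted p = 0.0479 and 0.0387). The part of these markers in the differences of Oxtr, and of the peptide and signalling genes below, was not tested.

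Avpr1a, the less abundant receptor, had a lowest, median and highest CPM of 0.524, 0.818 and 1.11 in Control, 0.205, 0.898 and 1.27 in MS, 0.389, 0.563 and 0.966 in Control_EC12 and 0.363, 0.619 and 0.880 in MS_EC12. Means were 0.808 ± 0.256, 0.782 ± 0.390, 0.628 ± 0.233 and 0.635 ± 0.211 (SD, n = 6), and no neighbouring pair differed beyond its SD. The groups overlapped throughout, and 8 of 12 EC-12 libraries lay under the mean of the unsupplemented group of the same rearing. The EC-12 difference over both rearings was −0.33 ± 0.23 (95% interval −0.82 to 0.15; adjusted p = 0.311, edgeR). The interval is wide: Avpr1a rested on 6 to 44 counts per library and varied between libraries more than 89.99% of the genes tested did.

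**Figure D4:**
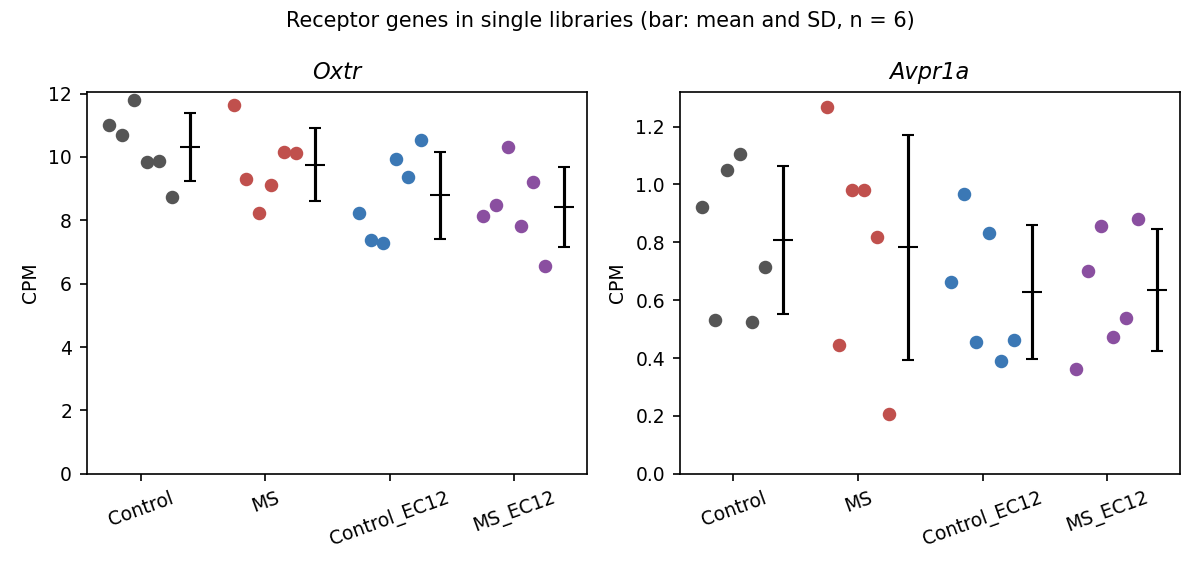
Oxtr and Avpr1a in CPM (vertical axes) in each of the 24 libraries, by group; points are libraries, with the group mean and SD. Mean Oxtr is 10.3 and 9.76 in Control and MS against 8.79 and 8.42 in Control_EC12 and MS_EC12, with overlapping ranges, and Avpr1a lies at or below 1.27 in all libraries.

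Separation differences of the ligands were large on the fold scale but imprecise. For Oxt, MS libraries exceeded Control by 2.44 ± 1.24 (log2 fold change ± SE; adjusted p = 1.00, edgeR), and MS_EC12 exceeded Control_EC12 by 3.24 ± 1.15 (unadjusted p = 0.00958, adjusted p = 0.247). Without MS replicate 1 the first was 0.69, and without MS_EC12 replicate 6 the second was 1.04. Averaged over both supplement states the Oxt difference was 2.84 ± 0.84 (95% interval 1.10 to 4.58; unadjusted p = 0.00251, adjusted p = 0.203), and it was 1.74 without MS_EC12 replicate 6, 1.24 without MS replicates 1 and 4 and 1.31 without the 3 libraries of most ligand reads. For Avp the averaged difference was 1.84 ± 0.83 (unadjusted p = 0.0367, adjusted p = 0.396), and it was 0.63 without MS replicate 1, 0.68 without MS_EC12 replicate 6 and 0.13 with voom library weights. MS replicates 1 and 4 had the most Oxt reads of the MS group (241 and 51 counts). Without both, the MS against Control difference of Oxt was −0.75 and that of Avp −0.41. For Avp, leaving out MS replicate 1 alone gave −0.24, and MS replicate 4 had only 9 Avp counts. Leaving out the highest libraries of a group lowers its difference by construction. These fits therefore show only that the positive sign was not kept without those libraries. The averaged EC-12 differences were 0.93 ± 0.86 for Oxt and 0.57 ± 0.84 for Avp (adjusted p = 0.451 and 0.646), and without MS_EC12 replicate 6 they were −0.17 and −0.59. Without Control_EC12 replicate 4 the averaged EC-12 difference of Avp was −0.22. Oxtr differed by −0.07 ± 0.08 (95% interval −0.24 to 0.09) and Avpr1a by −0.01 ± 0.24 (−0.49 to 0.48) over both supplement states.

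None of the 4 genes passed the edgeR test in any of the 7 comparisons. The share of all 18380 genes called was 0.0326% for MS against Control, 0.0218% for Control_EC12 against Control, 0.163% for MS_EC12 against MS, 0.261% for MS_EC12 against Control_EC12, 0.288% for the averaged separation difference and 0.0109% for the interaction. At an unadjusted p under 0.05 the count was 1 (Oxt) for MS_EC12 against Control_EC12, 1 (Oxtr) for the averaged EC-12 difference, 2 (Oxt and Avp) for the averaged separation difference and 0 in the other 4. Of all genes tested, 15.9%, 33.3% and 12% had such a p in the first 3 of these comparisons, so 1 of 4 is near the background for the EC-12 difference. The share was 3.6% for MS against Control, 8.93% for Control_EC12 against Control, 31.8% for MS_EC12 against MS and 4.8% for the interaction. DESeq2, limma on TPM and limma on voom values each called 1 of the 4, Oxtr in the averaged EC-12 difference, and none elsewhere. In that comparison DESeq2 called 18.7% of all genes with an adjusted p, limma on TPM 12.8% and voom with library weights 40.7%. DESeq2 gave no adjusted p for 1 or 2 of the 4 genes in each comparison. Comparisons with the same control group share those libraries.

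**Figure D5:**
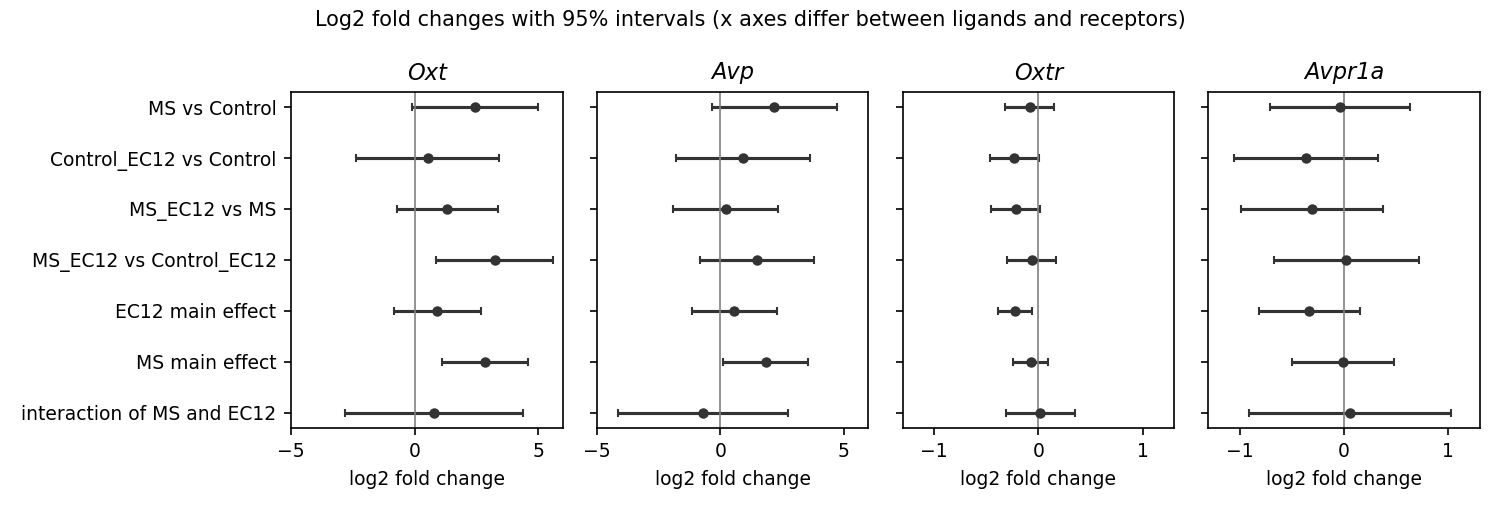
Log2 fold changes with 95% intervals (horizontal axes, wider range for the ligands) of Oxt, Avp, Oxtr and Avpr1a in the 7 comparisons; a main effect is a difference averaged over the other factor. The ligand intervals are several log2 units wide, such as 1.10 to 4.58 for Oxt in the averaged separation difference, while the Oxtr interval for the averaged EC-12 difference runs from −0.39 to −0.06.

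Genes that make, release or break down the peptides were described next to the members. Of 8 such genes, all tested, 2 were lower with EC-12 averaged over rearings (edgeR; 3.29% of all genes tested were lower in this comparison), 0 were higher, and the median log2 fold change was −0.01 against 0.02 over all genes. Pam, which amidates peptides including both ligands, was at −0.18 ± 0.04 (adjusted p = 0.0222). All 12 EC-12 libraries lay under the mean Pam of the unsupplemented group of the same rearing. Pcsk1, a prohormone convertase, was at −0.48 ± 0.12 (adjusted p = 0.0302), with 11 of 12 EC-12 libraries under the same kind of mean. Cd38, an enzyme required for oxytocin release, was at 0.35 ± 0.12 and did not pass (adjusted p = 0.0684). No gene of the list was called in the other 6 comparisons.

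Downstream of the receptors, 28 of 30 listed signalling genes were tested, and 3 were lower with EC-12 averaged over rearings (median −0.06), against 3.29% of all genes tested. This count changed with single libraries, as given below. Gnaq, the Gq alpha subunit, was at −0.21 (adjusted p = 0.0412), Plcb1, its phospholipase C target, at −0.33 (adjusted p = 0.0499992) and Rgs4, a regulator that shortens Gq signals, at −0.25 (adjusted p = 0.0411). In CPM, Gnaq averaged 269 ± 8.27 in Control and 270 ± 19.6 in MS against 241 ± 33.2 in Control_EC12 and 224 ± 30.5 in MS_EC12 (SD, n = 6). No gene of this list was called in the other comparisons either. Both counts were 0 within the 17 libraries of negative GC slope, with slope and block as covariates, and without the 3 libraries of most ligand reads; the part of these features in the counts was not tested. Leaving out 1 library at a time gave 0 signalling genes in 15 of 24 cases (each Control library, MS replicates 2, 4, 5 and 6, Control_EC12 replicates 3 and 4, and MS_EC12 replicates 3, 4 and 6). It gave 1 without MS replicate 1, Control_EC12 replicate 2 or MS_EC12 replicate 5, and 6 without MS replicate 3 or MS_EC12 replicates 1 or 2. The peptide count was 1 without Control replicate 5, MS replicates 2 or 5, or MS_EC12 replicates 3 or 4. The other vasopressin receptors were nearly unread: Avpr1b had 0 counts in all 24 libraries and Avpr2 had 4 counts in 1.

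The label of the tissue was checked with markers. Slc17a7, the vesicular glutamate transporter of cortical excitatory neurons, was at 1007 TPM on average. Striatal genes were abundant too, led by Penk (584 TPM) and Ppp1r1b (454), which cortical neurons express too, and the striatal list summed to 1057 to 2313 CPM over the 24 libraries.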

How the data were processed

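RNA-seq read counts of 24 mouse prefrontal cortex libraries were analysed, 6 per group, with groups and replicate numbers from the labels. RNA extracted with ISOGEN II was made into stranded mRNA libraries, per the labels' protocols. The build mm10 is named in the submitters' processing notes, as are HISAT2 2.1.0 and StringTie 2.1.3b among the tools. The sources used here do not state how reads were assigned to genes or strands. The deposited counts are whole numbers per gene, left unnormalized by the authors. The deposited FPKM and TPM values are the authors' own. FPKM was not tested. TPM was used for levels per length and for an alternative.

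Counts (26250197 to 39252382 per library) were filtered with filterByExpr (minimum count 10, minimum total 15), leaving 18380 genes, and tested in edgeR 4.0.16 (R 4.3.3) by its quasi-likelihood F test (TMM, 1 coefficient per group, 2-sided). P-values were adjusted by Benjamini-Hochberg over all genes tested, with 0.05 as the threshold. CPM is on TMM-scaled library sizes. Log2 CPM used a prior count of 2 and log2 TPM a pseudocount of 0.1. Alternatives used DESeq2 1.42.0 and limma 3.58.1. The fit was tested on simulated counts. No libraries were duplicates (smallest chi-square per gene between a pair of a group, 5.13). Correlations used 100000 permutations, or exact ones within groups.

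Genes were named by rule: the 4 members, up to 4 genes per list and comparison by smallest p, the 4 most abundant markers per tissue list, and the 5 genes most correlated with each member. The members and the lists were chosen with earlier results of these data known. Coordinates and promoter windows are from RefSeq (GRCm38.p6) and transcripts from GENCODE.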

Additional observations from a re-analysis of the deposited data

Results flagged for a closer look

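In 8 of the 20 sets of 6 libraries examined, the highest library was separated from the rest by a gap above Dixon's 95% critical share of the group's range, a gap that chance gives in about 1 of 20 sets of normally distributed values; the ligand CPM are low and skewed, and the rate for such values was not determined. For Oxt these were Control replicate 1 at 0.952 CPM (next 0.286), MS replicate 1 at 6.94 (next 1.61), Control_EC12 replicate 4 at 1.31 (next 0.325) and MS_EC12 replicate 6 at 19.1 (next 2.70). For Avp they were MS replicate 1 at 5.35 CPM (next 0.386), Control_EC12 replicate 4 at 1.84 (next 0.227) and MS_EC12 replicate 6 at 6.11 (next 0.540). The summed hypothalamic markers of MS replicate 1 stood at 44.5 CPM (next 28.2). No such gap was found for Oxtr or Avpr1a.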

How the results depend on the processing

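Averaged differences of Oxt with separation and the Oxtr difference with EC-12 kept their sign under all alternatives tried. For Oxtr with EC-12 averaged, the adjusted p passed under DESeq2 (−0.23), limma on TPM (−0.30) and voom with library weights (−0.18), and single libraries left out moved it from −0.26 to −0.19. The precision is limited by 6 libraries per group and by ligand counts in single digits in most libraries.

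Signs turned as follows (log2 fold changes), mostly for ligands or for values near 0; the cause was not tested. Avpr1a with separation averaged was 0.0079 with RLE size factors and 0.0092 with DESeq2. On TPM, Avpr1a in MS_EC12 against Control_EC12 was −0.022 and the Oxtr interaction −0.045; TPM moved the median of all genes by −0.105 in MS_EC12 against MS. With voom weights, Avp was −0.21 (Control_EC12 against Control), −1.31 (MS_EC12 against MS), −0.42 (MS_EC12 against Control_EC12) and −0.76 (EC-12 averaged), and Oxt −0.064 (Control_EC12 against Control). The 17 libraries of negative GC slope leave out the ligand-rich MS_EC12 replicates 3 and 6 and Control_EC12 replicate 4 but keep MS replicate 1. A part of this choice of libraries in the ligand signs cannot be told apart from one of GC slope. In these 17, Avp was −0.89, −1.78 and −1.33 and Oxt −0.56, −1.85 and −1.20 for Control_EC12 against Control, MS_EC12 against MS and EC-12 averaged. Avpr1a in MS_EC12 against Control_EC12 was −0.21 there, and the interactions were −1.29 (Oxt), −0.060 (Oxtr) and −0.11 (Avpr1a). With the hypothalamic level as a covariate, Avp was −1.25, −0.79 and −1.02 and Oxt −1.26, −0.029 and −0.64 in those comparisons, Avpr1a in MS_EC12 against Control_EC12 −0.11 and the Avp interaction 0.47. Without MS replicates 1 and 4, Avp and Oxt in MS against Control were −0.41 and −0.75, Avpr1a in MS_EC12 against MS 0.038 and the Avp interaction 1.90. Without the 3 libraries of most ligand reads, an alternative chosen after seeing the data, Avp was −0.23 (MS against Control), −0.65 (Control_EC12 against Control) and −0.17 (EC-12 averaged), its interaction 0.97, Oxt −0.37 (Control_EC12 against Control) and Oxtr 0.046 (MS_EC12 against Control_EC12).

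The replicate block turned Avpr1a with separation averaged to 0.0085. Deviations from group means had a mean r of 0.0887 between same-numbered libraries, against −0.0181 for other pairs. Of the 36 same-numbered pairs, 13 were over 0.1, and the lowest r was −0.3. Only 5 libraries correlated best with their own number. The block raised all calls for EC-12 averaged from 1448 to 4552. With GC slope added to the block there were 0, and Oxt was −0.033 (Control_EC12 against Control), −1.37 (MS_EC12 against MS), −0.70 (EC-12 averaged) and −1.34 (interaction), Avp −2.33 (MS_EC12 against MS), −0.75 (MS_EC12 against Control_EC12) and −1.05 (EC-12 averaged), Oxtr 0.042 and Avpr1a −0.14 (MS_EC12 against Control_EC12), and the Avpr1a interaction −0.063. Over all alternatives but single libraries, calls ran from 0 to 7476 for EC-12 averaged, 0 to 9432 for MS_EC12 against MS, 2 to 8959 for MS_EC12 against Control_EC12, 21 to 6938 for separation averaged, 3 to 157 for MS against Control, 2 to 236 for Control_EC12 against Control and 0 to 7321 for the interaction.

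Leaving out single libraries gave, for Oxt, −0.37 to 1.43 (Control_EC12 against Control), −0.86 to 3.06 (MS_EC12 against MS), −0.17 to 1.78 (EC-12 averaged) and −1.39 to 2.54 (interaction). For Avp it gave −0.24 to 2.68 (MS against Control), −0.66 to 1.40, −2.11 to 2.63, −0.84 to 3.07 (MS_EC12 against Control_EC12), −0.59 to 1.77 (EC-12 averaged) and −3.03 to 1.72 (interaction). Oxtr ran from −0.13 to 0.0072 (MS_EC12 against Control_EC12) and −0.048 to 0.085 (interaction). Avpr1a ran from −0.23 to 0.16 (MS against Control), −0.11 to 0.089 (separation averaged), −0.093 to 0.17 (MS_EC12 against Control_EC12) and −0.14 to 0.25 (interaction).

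The receptor signalling count (3) was 0 without the filter, 6 with DESeq2 and on TPM, 10 with voom weights, 7 with the replicate block, and 0 to 6 with single libraries left out. It and the peptide count (2; 1 to 2 with single libraries left out) were 0 in the 17 libraries, with block and GC slope, with the hypothalamic covariate, without MS replicates 1 and 4 and without the 3 ligand-rich libraries; these alternatives for the lists were added after the data were seen. Relations were r = 0.39, 0.34 and 0.43 without the 2 farthest libraries (Oxt with Avp, Oxt and Avp with the list). With group means subtracted Avpr1a with the list was 0.48 and Oxtr with Avpr1a −0.0088; without MS replicates 1 and 4, Oxtr with the list was −0.49.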

Other observations

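Markers of other tissues were high in single libraries, some of them rich in ligand reads and some not. The choroid plexus list (Ttr, Folr1, Kcnj13 and Kl) summed to 674 CPM in MS_EC12 replicate 6, the library of most Oxt reads, to 62.1 CPM in MS replicate 3 (4 Oxt counts), to 5.70 CPM in MS replicate 1, the second in Oxt reads, and to at most 11.1 CPM in the others. The thalamic transcription factor gene Gbx2 had 104 counts in MS_EC12 replicate 6, against 38 or fewer in the others. The thalamic list was highest in MS_EC12 replicate 6 (57.7 CPM), then MS replicate 1 (54.3). The septal list was highest in the 4 libraries of most Oxt reads. It summed to 146 CPM in MS_EC12 replicate 6, 137 in MS replicate 1, 131 in MS replicate 4 and 123 in MS_EC12 replicate 3. The olfactory bulb list was highest elsewhere, in Control_EC12 replicate 2 (378 CPM). MS_EC12 replicate 2 had the highest anterior pituitary sum, 6.32 CPM, with 26 Oxt and 17 Avp counts. These libraries, the lists shown and Gbx2 were picked out after their values were seen, and the part of such tissue in the ligand values was not tested.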
